A study of Mus musculus with 4 samples.

Results

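The ligands of the vascular endothelial growth factor (VEGF) family and the receptor gene Flt1 were read from the table of read counts of mouse CAFs (cancer-associated fibroblasts), which are stromal cells of a tumour. The members are the 6 gene symbols Vegfa, Vegfb, Vegfc, Figf, Pgf and Flt1, of 23377 in the table, picked by name. Figf is the older symbol of Vegfd. Polyadenylated RNA was sequenced in 4 libraries, 2 from CAFs of tumours labelled resistant (Res4, here resistant CAFs) and 2 from CAFs of tumours labelled normal (WTA, here normal CAFs). The series deals with lactate and with therapies aimed at MET and EGFR to which tumours stop responding. No strain, age, drug, dose or sort is named in the labels. Nor is an allele named for either group. The resistant libraries held 2845237 and 2785936 counted reads, and the normal libraries were deeper, at 3948066 and 5558541. Within a group the titles share 1 name and differ in the replicate number, so each group may be 1 line or tumour. The design text calls the replicates biological without naming cultures or animals, so that p-values cover the spread between these libraries alone, possibly a technical one.

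VEGF ligands are secreted, disulphide-linked dimers that act on receptor tyrosine kinases, mostly on endothelial cells, the cells that line vessels. VEGF-A binds the receptors encoded by Flt1 and Kdr, whereas VEGF-B and placental growth factor (Pgf) bind that of Flt1. VEGF-C and mouse VEGF-D, the product of Figf, bind the Flt4 receptor of lymphatic endothelium, and VEGF-C can bind that of Kdr as well. Neuropilins, encoded by Nrp1 and Nrp2, are co-receptors that VEGFs share with class 3 semaphorins. Fibroblasts of a tumour stroma are a known source of these ligands. Flt1 also yields a soluble form that traps ligand, and counts per gene symbol do not separate the forms.

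Resistant CAFs had more RNA of Figf and of Vegfa, and less of Pgf and of Flt1, than normal CAFs. Figf was 48.6-fold higher and Vegfa 2.53-fold higher, while Pgf was 12.3-fold lower and Flt1 3.24-fold lower. Vegfb and Vegfc did not pass the test. All 6 members passed the filter on low counts, and 2 were called higher and 2 lower, where 15.5% of all 12001 genes tested were called higher, 13.9% lower and 29.4% in either direction. A call is an adjusted p under 0.05 in edgeR's quasi-likelihood test.

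The stretches upstream of the annotated starts of Figf, Pgf and Flt1, the 3 members with the largest fold changes, are shown for context. They are the 250 bases before each start from RefSeq, build GRCm38.p6, on the strand of the gene. That of Figf is chrX:164373272-164373521 on the plus strand, that of Pgf is chr12:85177314-85177563 on the minus strand, and that of Flt1 is chr5:147726012-147726261 on the minus strand. Capitals mark letters that match a motif, each searched on both strands. The AP-1 motif was searched as TGAGTCA. The cAMP response element was searched as TGACGTCA, and the TATA box as TATAAA. The core that HIF factors bind was searched in 2 forms, of which 1 is ACGTG. The other form of that core is GCGTG. No motif overlaps another in the stretches shown.
Figf: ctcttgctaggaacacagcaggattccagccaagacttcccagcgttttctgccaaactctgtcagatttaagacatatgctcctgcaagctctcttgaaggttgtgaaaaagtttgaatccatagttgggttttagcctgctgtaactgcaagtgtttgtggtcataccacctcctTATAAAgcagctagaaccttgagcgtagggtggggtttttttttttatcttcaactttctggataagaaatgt
Pgf: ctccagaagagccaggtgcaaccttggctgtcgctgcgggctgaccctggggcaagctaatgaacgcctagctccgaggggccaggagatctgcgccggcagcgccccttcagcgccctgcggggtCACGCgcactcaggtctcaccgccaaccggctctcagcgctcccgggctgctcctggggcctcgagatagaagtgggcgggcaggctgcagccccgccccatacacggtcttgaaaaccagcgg
Flt1: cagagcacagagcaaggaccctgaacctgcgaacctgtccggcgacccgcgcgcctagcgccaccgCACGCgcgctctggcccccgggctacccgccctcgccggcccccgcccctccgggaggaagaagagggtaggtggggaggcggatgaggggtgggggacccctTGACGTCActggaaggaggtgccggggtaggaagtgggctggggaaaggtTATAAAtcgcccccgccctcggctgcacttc
The Figf stretch had a GC content of 42.4%, against 68.4% for Pgf and 70.4% for Flt1, and a median of 52.4% over 32851 RefSeq stretches of this length. Figf had 1 match, to TATAAA, which begins 73 bases before the start. Pgf had 1 match to GCGTG, read on the opposite strand. Flt1 had TATAAA beginning 31 bases and TGACGTCA beginning 81 bases before the start, and GCGTG once on the opposite strand. Of all such stretches, 12.4% hold the TATA box motif, 1.55% the cAMP response element, 4.46% the AP-1 motif, 28.2% GCGTG and 16.6% the other HIF core. A match is a match of letters, and no binding was measured. Another annotated start of Pgf is not shown.

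**Figure D1:**
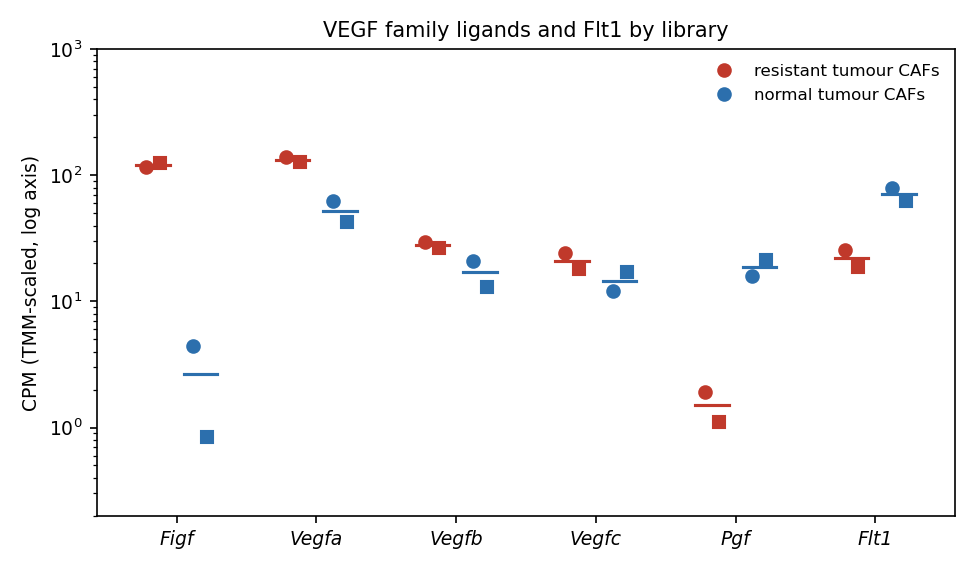
Level of each member in each library, in CPM on a log axis, with resistant CAFs in red left of normal CAFs in blue. Circles are replicate 1, squares are replicate 2 and bars are group means (n = 2); Figf sits near the top in resistant libraries at 116 and 126 CPM and lowest in normal libraries.

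Among the ligands, Figf encodes VEGF-D, a growth factor for lymphatic vessels first described as induced by c-fos in mouse fibroblasts. It had 307 and 344 reads in the resistant libraries and 18 and 5 reads in the normal libraries. In CPM, counts per megaread of the scaled library, these are 116 and 126 in resistant CAFs, against 4.45 and 0.839 in normal CAFs. The resistant libraries lay close together and far above both normal libraries, which differed from each other. Means were 121 ± 6.66 CPM in resistant CAFs, against 2.64 ± 2.55 CPM in normal CAFs (SD, n = 2 each). The log2 fold change of Figf was 5.60 ± 0.60 (SE), with an adjusted p of 3.35e-05 in edgeR's test. It was 7.06 without normal replicate 1 and 4.72 without normal replicate 2, past the threshold in both, so the size of the fold depends on the normal library used.

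Vegfa encodes the main VEGF of blood vessel growth, a known target of the hypoxia response. It had 366 and 347 reads in the resistant libraries and 252 and 255 reads in the normal ones, which were sequenced more deeply. That is 139 and 127 CPM in resistant CAFs, against 62.2 and 42.8 CPM in normal CAFs, with no overlap. The means were 133 ± 8.39 CPM in resistant CAFs, against 52.5 ± 13.8 CPM in normal CAFs. The log2 fold change of Vegfa was 1.34 ± 0.33 (adjusted p = 0.00882). The call of Vegfa was lost without normal replicate 1 (log2 fold change 1.57, adjusted p = 0.0941) and also without normal replicate 2 (1.05, adjusted p = 0.342).

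Pgf encodes placental growth factor, a ligand of the Flt1 receptor. It had 5 and 3 reads in the resistant libraries and 65 and 127 reads in the normal libraries, which is 1.90 and 1.10 CPM in resistant CAFs, against 16.1 and 21.3 CPM in normal CAFs. Both resistant libraries were near the limit of detection, since a count of 0 allows up to 3 reads, or 1.05 and 1.08 CPM by their totals. Means were 1.50 ± 0.565 CPM in resistant CAFs, against 18.7 ± 3.72 CPM in normal CAFs. The log2 fold change of Pgf was -3.62 ± 0.59 (adjusted p = 5.43e-04), with a range of -4.05 to -3.29 over the 14 alternatives, past the threshold in each.

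Vegfb encodes a ligand of the Flt1 receptor tied to heart muscle and lipid uptake. It had 29.6 and 26.3 CPM in resistant CAFs, against 21.0 and 13.1 CPM in normal CAFs, and its log2 fold change was 0.72 ± 0.43 (adjusted p = 0.238). Vegfc encodes the main growth factor of lymphatic vessels in development. It had 24.3 and 17.9 CPM in resistant CAFs, against 12.1 and 17.1 CPM in normal CAFs, and its log2 fold change was 0.52 ± 0.43 (adjusted p = 0.413). For both genes the groups did not overlap, as was the case for all 6 members and for 64.7% of all genes tested. In simulated data for this comparison, with 11810 genes tested, 12.5% of 2-fold and 85.7% of 4-fold changes were recovered. The simulation changed far fewer genes than were called here, which makes its adjusted threshold stricter. The recovered shares thus cannot tell whether changes of the size measured for Vegfb and Vegfc were within reach.

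The summed level of the 5 ligands was 311 and 298 CPM in resistant CAFs, against 116 and 95.1 CPM in normal CAFs. Without Figf the sums were 195 and 172 CPM in resistant CAFs, against 111 and 94.3 CPM in normal CAFs. The make-up of the ligand RNA was compared after division by exonic length, the union of annotated exons. Figf made up 44.1% and 49.3% of ligand reads per exonic base in resistant libraries and 4.62% and 1.06% in normal libraries. Pgf made up 0.595% and 0.357% in resistant CAFs, against 13.9% and 22.4% in normal libraries. Thus Figf held the largest share in both resistant libraries and the smallest in both normal libraries. Vegfa had 29.5% and 27.9% in resistant CAFs, against 36.4% and 30.4% in normal libraries, so its share was lower although its own level was higher. Vegfb had 16.8% and 15.5% in resistant CAFs, against 32.8% and 24.8% in normal libraries, and Vegfc had 9.03% and 6.91% in resistant CAFs, against 12.4% and 21.3% in normal libraries. No test is given for shares, since the smallest exact permutation p for 2 against 2 is 0.333.

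**Figure D2:**
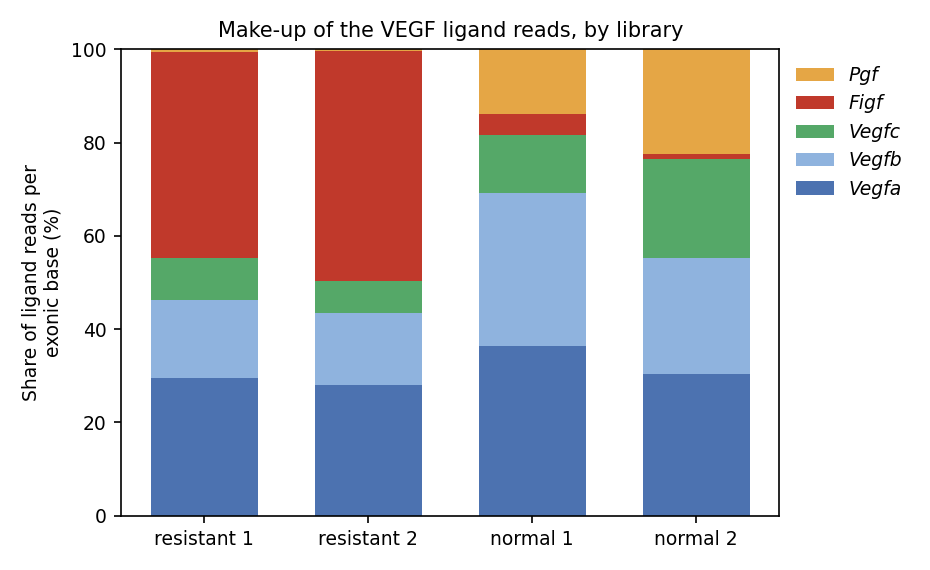
Share of each of the 5 ligands in the reads per exonic base of all 5, in percent, 1 bar per library, resistant libraries left. Figf (red) takes 44.1% and 49.3% in the resistant bars, and Pgf (orange) takes 13.9% and 22.4% in the normal bars.

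Without division by length, Figf held 37.4% (95% Wilson interval 34.2% to 40.8%) and 42.2% (38.9% to 45.6%) of ligand reads in resistant libraries. In normal libraries it held 3.84% (2.44% to 5.98%) and 0.882% (0.377% to 2.05%). On that scale Vegfa held 44.6% and 42.6% in resistant CAFs, against 53.7% and 45.0% in normal libraries. That was the largest share in resistant replicate 1 and in both normal libraries. In resistant replicate 2 Vegfa (39.2% to 46.0%) and Figf overlapped, at 347 and 344 reads. Intervals here cover counting error only, since no molecular identifiers are described.

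Flt1 encodes the receptor for VEGF-A, VEGF-B and placental growth factor, found on endothelial cells and monocytes. It had 67 and 51 reads in resistant CAFs, against 324 and 376 reads in normal libraries. In CPM it stood at 25.4 and 18.7 in resistant CAFs, against 80.0 and 63.1 in normal CAFs, with means of 22.0 ± 4.78 in resistant and 71.5 ± 12.0 in normal CAFs (SD, n = 2 each). Both normal libraries thus lay above both resistant libraries. The log2 fold change of Flt1 was -1.70 ± 0.39 (adjusted p = 0.00580). Without normal replicate 1 it was -1.59 and did not pass (adjusted p = 0.0739).

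**Figure D3:**
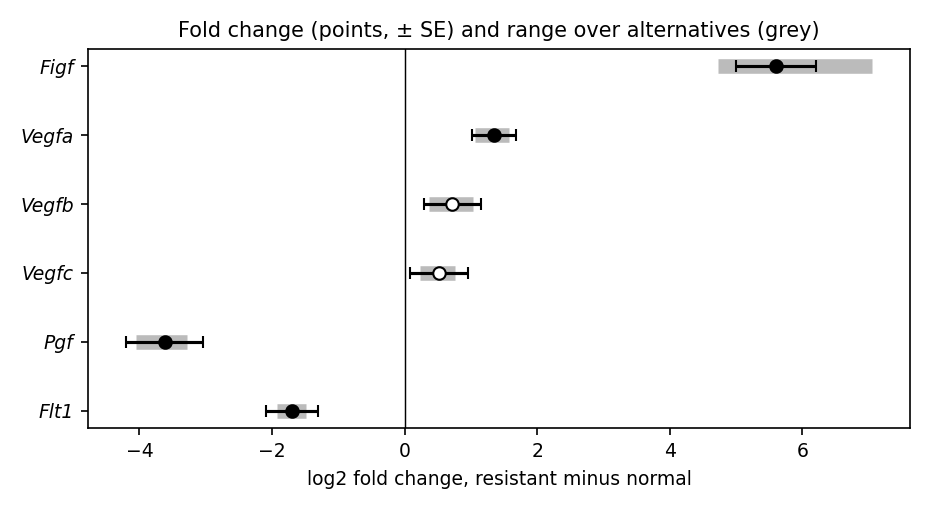
Log2 fold change of each member, resistant minus normal, with its SE as a bar; filled points passed the test and open points did not. Grey bands give the lowest and highest value over the fit as reported and all alternatives, widest for Figf at 4.72 to 7.06, and no band crosses 0.

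Per kilobase of exon, the order of levels in resistant CAFs was Figf (48.4 and 52.3 CPM per kilobase), Vegfa (32.4 and 29.6), Vegfb (18.4 and 16.4), Vegfc (9.91 and 7.32), Flt1 (1.88 and 1.38) and Pgf (0.653 and 0.378). No neighbours in that order overlapped. In normal CAFs Vegfa (14.5 and 9.98 CPM per kilobase) and Vegfb (13.1 and 8.15) led and overlapped. Pgf (5.53 and 7.34), Vegfc (4.94 and 6.99) and Flt1 (5.93 and 4.67) followed and overlapped with each other. Figf was last at 1.85 and 0.348 CPM per kilobase. The place of Flt1 depends on the length used. With the longest protein-coding transcript of each gene, a choice made after seeing the data, Flt1 had 3.69 and 2.71 CPM per kilobase in resistant CAFs, against 11.6 and 9.15 in normal CAFs. There it overlapped with Vegfb (16.4 and 10.2) and Pgf (7.72 and 10.2) in the normal libraries.

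The authors' deposited table gave log2 fold changes of 5.58 for Figf, 1.31 for Vegfa, 0.69 for Vegfb, 0.49 for Vegfc, -3.68 for Pgf and -1.73 for Flt1. In the authors' deposited table Figf was called upregulated (adjusted p = 5.35e-15) and Pgf downregulated (adjusted p = 0.0149), and Vegfa (adjusted p = 1) and Flt1 (adjusted p = 0.535) were not called. The statistic in the authors' deposited table is 0 for 9194 genes, none with an absolute log2 fold change above 1.01. A test of these counts against an absolute log2 fold change of 1, chosen after seeing the data, likewise called Figf (adjusted p = 6.85e-05) and Pgf (adjusted p = 0.00212) and neither Vegfa (adjusted p = 0.249) nor Flt1 (adjusted p = 0.0791).

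Of the other receptors and co-receptors, 3 of 4 were tested, with 1 called higher and 1 lower. Kdr, the main signalling receptor for VEGF-A on endothelium, had 1 read in resistant replicate 2 and none in the other libraries. Flt4, the receptor for VEGF-C and VEGF-D, had 9 reads in each resistant library and none in either normal library. It was 11.2-fold higher if 3 reads are allowed over the normal group, a value that leaves out the counting error of the resistant reads. Its adjusted p was 0.00134. The libraries thus held few reads of either receptor, at most 3.41 CPM for Flt4. Nrp1 had 156 and 187 CPM in resistant CAFs, against 288 and 289 CPM in normal CAFs, and its log2 fold change was -0.75 ± 0.25 (adjusted p = 0.0382). That call was lost without normal replicate 1 (adjusted p = 0.263), without normal replicate 2 (adjusted p = 0.342), with DESeq2 (adjusted p = 0.0537), with length offsets (adjusted p = 0.0939) and with at least 50 reads in 2 libraries (adjusted p = 0.0516). Nrp2 had 430 and 229 CPM in resistant CAFs, against 373 and 248 CPM in normal CAFs, and the groups overlapped (adjusted p = 0.869).

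**Figure D4:**
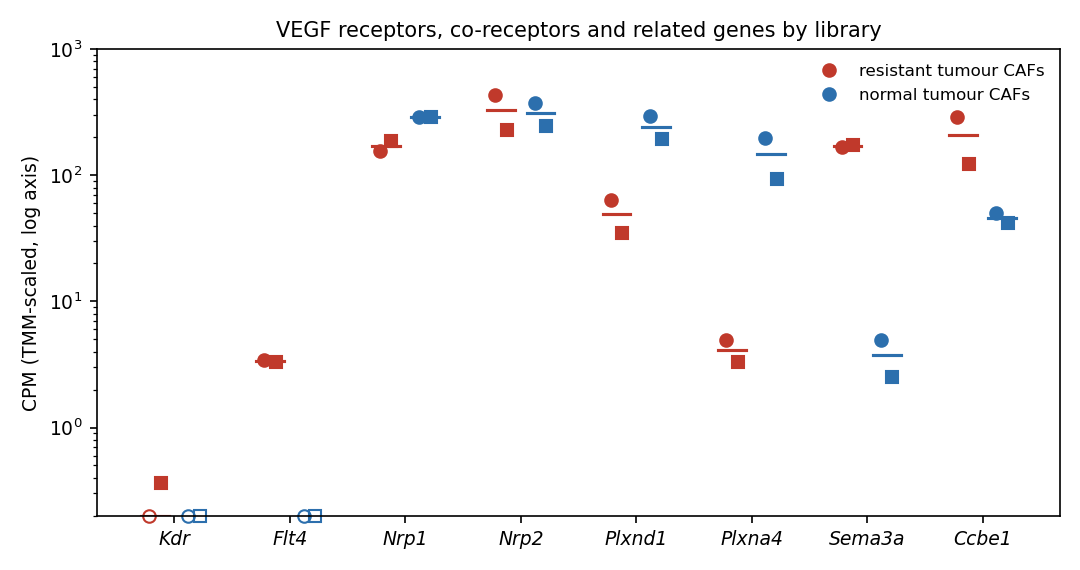
Level of receptors, co-receptors, plexins, Sema3a and Ccbe1 in each library, in CPM on a log axis, with resistant CAFs in red left of normal CAFs in blue. Circles are replicate 1, squares replicate 2, bars are group means (n = 2), and open symbols on the lower edge have no read, as for Flt4 in both normal libraries.

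VEGF-C and VEGF-D are made as precursors that are cut by proteases. Of 6 processing genes, 4 were tested and 1 was called higher. Ccbe1, which with the protease Adamts3 activates VEGF-C, had 293 and 123 CPM in resistant CAFs, against 50.1 and 41.8 CPM in normal CAFs. Its log2 fold change was 2.18 ± 0.40 (adjusted p = 0.00122), and 1.43 without resistant replicate 1. Adamts3 itself had 10 and 3 reads in resistant CAFs, against 10 and 9 reads in normal libraries and was not tested. The log2 fold change of Adamts14, a related protease, was 1.26 ± 0.45 (adjusted p = 0.0501), and the convertases Furin and Pcsk7 had -0.24 ± 0.30 and -0.12 ± 0.37, none of them called. Adamts14 was called in 8 of 14 alternatives, and its log2 fold change was 0.39 without resistant replicate 1 (adjusted p = 0.375) and 1.81 without resistant replicate 2 (adjusted p = 0.00396). Pcsk5 had no read in resistant libraries and 7 and 18 in normal libraries. It was 4.47-fold lower if 3 reads are allowed over the resistant group, a value that leaves out the counting error of the normal reads.

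Class 3 semaphorins bind neuropilins and signal through plexins. Of 12 such genes, 10 were tested, 4 were called higher and 4 lower. Sema3a, a repulsive guidance cue that binds Nrp1, had 169 and 174 CPM in resistant CAFs, against 4.94 and 2.52 CPM in normal CAFs (log2 fold change 5.55 ± 0.44, adjusted p = 6.16e-06). Plxna4 had 4.93 and 3.29 CPM in resistant CAFs, against 199 and 94.0 CPM in normal CAFs (log2 fold change -5.14 ± 0.51, adjusted p = 2.01e-05). Plxnd1, a plexin of endothelial guidance, had 63.7 and 35.1 CPM in resistant CAFs, against 293 and 194 CPM in normal CAFs (log2 fold change -2.30 ± 0.36, adjusted p = 4.12e-04). In each of these 3 genes the groups were far apart.

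Angiopoietins act on the endothelial receptor Tek. Of 6 genes listed, namely the angiopoietins, the angiopoietin-like Angptl4 and the receptors Tek and Tie1, 4 were tested and 2 were called higher. Those 2 were Angpt1 and Angptl4, and neither Tek nor Tie1 was tested. Angpt1, the activating ligand of Tek, had 74.0 and 65.9 CPM in resistant CAFs, against 21.7 and 19.3 CPM in normal CAFs (log2 fold change 1.77 ± 0.38, adjusted p = 0.00365). Leaving out normal replicate 1 (adjusted p = 0.0760) or 2 (adjusted p = 0.119) ended that call. Angptl4, an inhibitor of lipoprotein lipase, had 240 and 271 CPM in resistant CAFs, against 39.0 and 42.6 CPM in normal CAFs (log2 fold change 2.64 ± 0.29, adjusted p = 3.83e-05). Angpt2 and Angpt4 had -0.41 ± 0.45 and 0.01 ± 0.35 and were not called. Tie1 had no read, and Tek had 6 and 1 reads in resistant CAFs, against 2 and 9 reads in normal libraries.

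Of 7 genes in a list of inhibitors of vessel growth, 3 were called higher and 2 lower. That list holds Vash2, a relative of Vash1 that is not taken as an inhibitor here. The thrombospondin genes Thbs1 and Thbs2 had log2 fold changes of 1.32 ± 0.21 and 1.27 ± 0.22, and Serpinf1, which encodes pigment epithelium-derived factor, had 1.34 ± 0.23. Vash1 (vasohibin, which endothelial cells make in response to VEGF) had 1.52 and 2.56 CPM in resistant CAFs, against 208 and 165 CPM in normal CAFs, and its log2 fold change was -6.49 ± 0.46. Col18a1, whose product releases endostatin, had 110 and 106 CPM in resistant CAFs, against 804 and 747 CPM in normal CAFs, and its log2 fold change was -2.85 ± 0.24. The adjusted p of these 5 genes ran from 3.22e-06 for Vash1 to 0.00102 for Thbs2. Vash2 (-0.95 ± 0.34, adjusted p = 0.0552) and the protease gene Adamts1 (-0.01 ± 0.24) were not called, though Vash2 was called in 7 of 14 alternatives.

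HIF factors switch on Vegfa in hypoxia, and the prolyl hydroxylases and Vhl mark their alpha subunits for breakdown. Of 9 such genes, 3 were called higher and none lower. Egln3, a hydroxylase that is itself a HIF target, had 69.8 and 69.1 CPM in resistant CAFs, against 0.741 and 0.671 CPM in normal CAFs (log2 fold change 6.57 ± 0.54). Arnt, the shared beta subunit, had 263 and 278 CPM in resistant CAFs, against 116 and 128 CPM in normal CAFs (1.15 ± 0.25). Vhl had 195 and 173 CPM in resistant CAFs, against 73.8 and 81.7 CPM in normal CAFs (1.24 ± 0.29). The calls of Arnt and Vhl were lost without normal replicate 1 (adjusted p = 0.160 and 0.199) or without normal replicate 2 (adjusted p = 0.113 and 0.146). Hif1a had 666 and 323 CPM in resistant CAFs, against 318 and 325 CPM in normal CAFs, overlapping (log2 fold change 0.62 ± 0.30, adjusted p = 0.153). Without resistant replicate 1 its log2 fold change was 0.013 (adjusted p = 0.967), and without resistant replicate 2 it was 1.05 (adjusted p = 0.0140), so the value rests on which resistant library is used. The other members that were not called were Epas1 (-0.54 ± 0.55), Arnt2 (-1.61 ± 0.66), Egln1 (0.37 ± 0.43), Egln2 (-0.89 ± 0.51) and Hif1an (0.03 ± 0.34). Egln2 was at 80.8 and 20.1 CPM in the resistant libraries and 85.4 and 101 CPM in the normal ones, and was called lower without resistant replicate 1 (-2.21, adjusted p = 0.00195) and with the replicate number as a block (-1.16, adjusted p = 0.00689), while it had -0.21 without resistant replicate 2. Arnt2 was called lower in 3 of 13 alternatives, and ranged from -0.73 without normal replicate 1 to -2.25 without normal replicate 2. Epas1 ranged from -1.26 without resistant replicate 1 to -0.058 without resistant replicate 2, called in neither.

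Of 5 genes whose proteins bind Vegfa mRNA, 1 was called higher and 1 lower. Elavl1, which stabilises it, had 94.1 and 76.8 CPM in resistant CAFs, against 261 and 271 CPM in normal CAFs (log2 fold change -1.64 ± 0.27, adjusted p = 6.32e-04). Zfp36l1, which promotes its decay, had 166 and 86.7 CPM in resistant CAFs, against 35.3 and 55.2 CPM in normal CAFs (1.47 ± 0.40, adjusted p = 0.0136). The call of Zfp36l1 was lost in 3 of the 4 fits without a library, those without resistant replicate 1 (adjusted p = 0.0644), without normal replicate 1 (0.278) and without normal replicate 2 (0.0675). Of 19 genes that signal below VEGF receptors, 17 were tested, none was called higher and 5 lower. Hspb1, a small heat shock protein downstream of p38, had 1 read in the resistant libraries against 185 and 309 in the normal ones. With reads pooled over the libraries of each group, normal CAFs had 265 times the level of resistant CAFs (exact 95% interval of the ratio 47.3 to 10489). That interval covers counting error only, not the spread between libraries. Prkca, a protein kinase C, had a log2 fold change of -1.59 ± 0.36, and its call was lost without normal replicate 2 (adjusted p = 0.114).

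**Figure D5:**
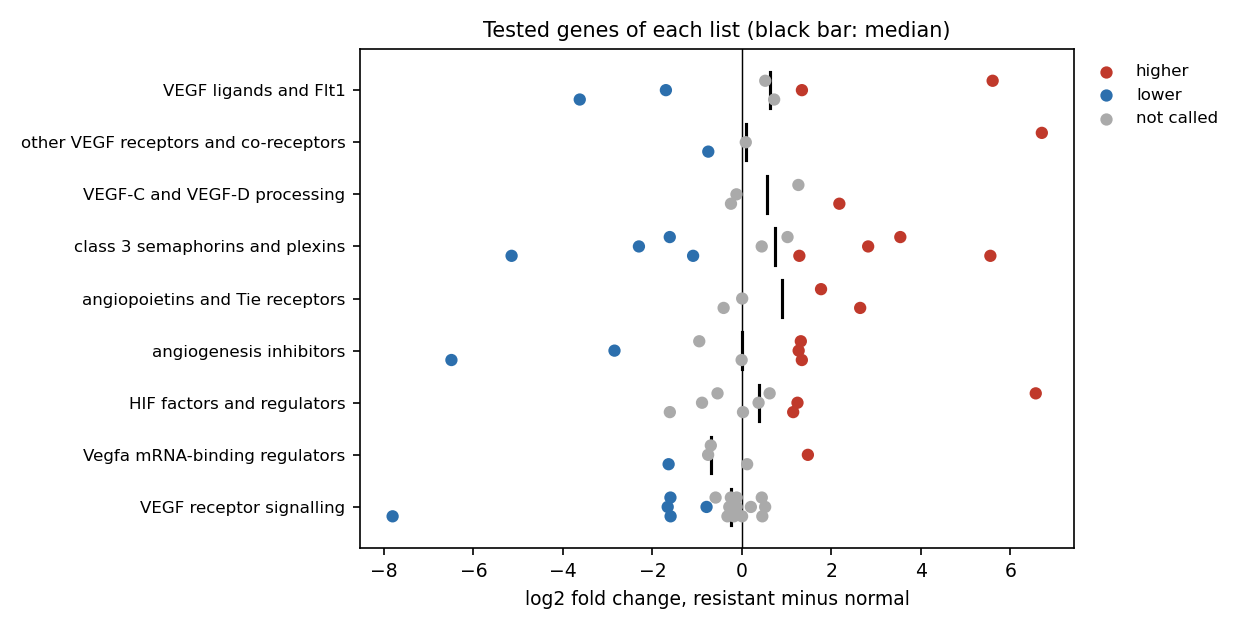
Log2 fold change, resistant minus normal, of each tested gene in the 9 lists, with genes called higher in red, lower in blue and not called in grey; the black bar is the list median. The point of Flt4, at 6.70, depends on a small count added in the fit, since no normal library had a read.

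The median log2 fold change was 0.62 over the 6 members and -0.0036 over all genes tested. It was 0.09 for other receptors and co-receptors, 0.57 for processing genes and 0.73 for semaphorins and plexins. The list of angiopoietins with Angptl4, where no Tie receptor was tested, had 0.89. That of vessel growth inhibitors with Vash2 had -0.0051. The median was 0.37 for HIF factors, -0.69 for mRNA-binding regulators and -0.25 for signalling genes. With Flt4 at its lower bound the receptor median stays at that of Nrp2.

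Markers of cell types that use or make VEGFs were read in the same libraries. In bulk RNA, fewer cells of a type and less RNA per cell cannot be told apart. Of 16 endothelial markers, Emcn, Robo4, Sox17, Lyve1 and Prox1 had no read. The 14 markers besides Egfl7 and Eng, a split made after seeing the values, held 24 and 33 reads in all in resistant CAFs, against 32 and 20 reads in normal libraries. Among these 14, Pecam1 had 0 and 1 reads in resistant CAFs, against 5 and 0 in normal libraries. Plvap had 18 and 22 reads in resistant CAFs, against 1 and 1 in normal libraries. Vwf went the other way, with 1 and 0 reads in resistant CAFs, against 17 and 7 in normal libraries. Summed over all 16, the level was 64.5 and 81.9 CPM in resistant CAFs, against 88.4 and 76.5 CPM in normal CAFs. Egfl7 averaged 60.0 CPM in resistant CAFs, against 24.8 CPM in normal CAFs, and Eng (endoglin) 2.61 CPM in resistant and 52.0 CPM in normal CAFs. Eng thus stood higher in the group where Flt1 was higher, while Egfl7 and Plvap stood higher in the other group. Of 3 tested endothelial markers, Egfl7 and Plvap were called higher and Eng lower. The call of Egfl7 was lost without normal replicate 1 (adjusted p = 0.274) and without normal replicate 2 (adjusted p = 0.291).

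Of 8 macrophage markers, Ptprc, Adgre1 and Aif1 had no read, and the sum was 20.1 and 28.9 CPM in resistant CAFs, against 8.40 and 9.56 CPM in normal CAFs. Lyz2 was the 1 of 3 tested that was called, higher, and not without normal replicate 1 (adjusted p = 0.0543). Csf1r and Cd68 were not called. Epithelial markers summed to 45.5 and 63.7 CPM in resistant CAFs, against 9.63 and 9.23 CPM in normal CAFs, mostly Krt19, with no read of Epcam or Cdh1. Of 9 mural cell markers, 7 were tested, 2 called higher and 2 lower, and they summed to 330 and 436 CPM in resistant CAFs, against 849 and 717 CPM in normal CAFs. Mcam and Cspg4 were the 2 called lower, and Acta2 was not called. The 2 called higher were Myh11 and Rgs5. Myh11 had 29.2 and 15.7 CPM in resistant CAFs and no read in normal libraries. Rgs5 had 12 and 9 reads in resistant CAFs, against 1 and 3 reads in normal libraries. The labelled cell type was checked against 10 fibroblast markers, of which all 9 tested were called higher, with sums of 6925 and 6616 CPM in resistant CAFs, against 2917 and 2454 CPM in normal CAFs. Col1a1, Col1a2 and Col3a1 held the most reads, and the call of Col1a1 was lost with DESeq2 (adjusted p = 0.0726) and in 3 of the 4 fits that leave out a library (adjusted p from 0.0781 to 0.177). That of Col1a2 was lost without resistant replicate 2 (adjusted p = 0.0704). The 8 Schwann cell and neural crest markers summed to 8.34 and 8.05 CPM in resistant CAFs, against 1245 and 1103 CPM in normal CAFs. All 6 of them tested were called lower, Ngfr and Erbb3 among them. The tested fibroblast markers were thus called higher, as were Figf and Vegfa. The tested Schwann cell and neural crest markers were called lower, as were Pgf and Flt1. With 2 groups every called gene falls on 1 of these sides, 1857 genes of the table higher and 1668 lower. The part of cell type in the members' differences was not tested.

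By distance in log2 CPM over the 4 libraries, which reflects level as well as pattern, the genes nearest to Figf were Ptges (0.72) and Rarres2 (0.77). Ptges had 137 and 172 CPM in resistant CAFs, against 2.96 and 0.839 CPM in normal CAFs. The nearest to Pgf were Ctsw (0.38) and Slc38a1 (0.40), and to Flt1 Jhdm1d (0.32) and Dennd5b (0.35). The nearest to Vegfa were Cpne8 (0.27) and Adnp (0.32), to Vegfb Vmn1r58 (0.23) and Trappc8 (0.27), and to Vegfc Dhrs11 (0.21) and Ccdc15 (0.23). With 4 libraries in 2 groups such nearness is a description.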

How the data were processed

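The deposited counts are whole reads per gene symbol. Per the submitters' processing notes the build was mm9 and the tools were DESeq2, HTSeq 0.7.2, Picard 1.62, TopHat2 2.1.1 and bcl2fastq 2, with no roles, settings or annotation stated. Per the labels' protocols both a TruSeq kit and a SMART-seq2 protocol were used, and which libraries had which is not given, so protocol and group cannot be told apart. The authors' deposited table gives log2 fold changes, a statistic (score), p-values and adjusted p-values, and mean normalized signal per group, positive fold changes being higher in resistant tumour CAFs. The deposited normalized table was not used here.

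Library totals were 2845237 and 2785936 reads in resistant and 3948066 and 5558541 reads in normal replicates 1 and 2. A count of 0 allows 3 reads, or 0.540 to 1.08 CPM by library totals. Genes were kept by filterByExpr (minimum count 10), scaled with TMM (trimmed mean of M values), and tested with the quasi-likelihood F test of edgeR 4.0.16 in R 4.3.3, group as the only term, resistant minus normal. P-values are two-sided and were adjusted by Benjamini-Hochberg over 12001 genes, with a threshold of 0.05. CPM use TMM-scaled totals, and the SE is the log2 fold change over the root of F. Exonic lengths came from GENCODE M21 (GRCm38), for 23017 of 23377 symbols, Figf through its RefSeq synonym. No exon of another annotated gene overlaps an exon of a member.

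Alternatives were other scalings, filters, DESeq2 1.42.0, limma-voom (limma 3.58.1), a replicate block, offsets removing each library's loess trend (span 0.5) along length, each library left out, and, added later, a test against a log2 fold change of 1. The procedure was tested on simulated data. Members, lists and the naming rule were chosen with earlier results of these data known. The rule named all members, every tested gene of 5 lists (other receptors, processing, angiopoietins, inhibitors, HIF factors), the 3 called genes of smallest adjusted p in other lists, up to 3 markers of highest CPM per cell type and the 2 nearest genes to each member. Genes with too few reads to test were named after their values were seen, as were Myh11, Rgs5 and the split of the endothelial markers. Some genes that the rule takes are not reported here.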

Additional observations from a re-analysis of the deposited data

How the results depend on the processing

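Figf, Pgf, Vegfb and Vegfc kept their direction and their side of the threshold under all 14 alternatives. Vegfa and Flt1 kept their direction in all 14, and missed the threshold with the test against a log2 fold change of 1 (1.34 and -1.70). Among the fits without 1 library, Vegfa ranged from 1.05 to 1.57 and Flt1 from -1.93 to -1.49, with Vegfa missing the threshold without either normal replicate and Flt1 without normal replicate 1. Leaving out 1 library gave 1 to 2 members called higher and 1 to 2 lower; over the pathway lists 9 to 16 higher and 9 to 18 lower, against 15 and 13 with all libraries; over all genes 1078 to 2024 higher and 951 to 2323 lower, against 1857 and 1668. The test against a log2 fold change of 1 called 1 member higher and 1 lower, 7 and 6 genes of the pathway lists, and 1066 and 839 of all genes. Where 1 library was left in a group, its spread was taken from the group with 2. With library totals as scaling the median shift over all genes was -0.139 (log2) and the calls were 1737 higher and 2156 lower. Flt4 did not pass the low-count filter in fits without a library or with at least 50 reads in 2 libraries.

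Differences near 0 that changed sign were not called in the fit as reported. With library totals they were Nrp2 (-0.056), Angpt4 (-0.13) and Hif1an (-0.11), and without a low-count filter Angpt4 (-0.050) and Hif1an (-0.033). Adamts1 had 0.032 with at least 50 reads in 2 libraries and 0.10 with length offsets. Over the fits without 1 library, the ranges were -0.43 to 0.47 for Nrp2, -0.21 to 0.23 for Hif1an, -0.089 to 0.099 for Angpt4, -0.12 to 0.090 for Adamts1, -0.60 to 0.049 for Furin, -0.32 to 0.061 for Pcsk7, -0.012 to 0.68 for Egln1, -0.11 to 0.49 for Acta2 and -0.018 to 0.40 for Cd68. The cause was not tested.

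The replicate block, with log2 CPM differences between replicate numbers correlated at r = 0.217 between groups over 12001 genes, gave 2 members higher and 2 lower and 2257 and 2267 of all genes. The labels do not say that a number marks a shared culture or day. Figf was 5.71, Vegfa 1.36, Pgf -3.61 and Flt1 -1.70 with the block, all called. With the block Adamts14 (1.11, adjusted p = 0.00712), Vash2 (-0.96, adjusted p = 0.0204) and Egln2 (-1.16, adjusted p = 0.00689) were called as well, and among the other named genes no call changed.

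Depth limits Pgf in resistant and Figf in normal libraries, at 3 to 18 reads. Kdr, Tek and Adamts3 had too few reads to test.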
